A study of Mus musculus with 74 samples.

Results

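Smad3, Smad7, Smurf1 and Smurf2 were followed on mouse cDNA arrays through the first 4 h of TGF-β treatment. The members were all probes whose single gene symbol in the platform annotation was one of these 4 gene symbols, and each probe was kept separate. This gave 9 of 8976 probes: 3 for Smad3, 2 for Smad7, 1 for Smurf1 and 3 for Smurf2. Of all probes, 7348 carried a single symbol, and they stood for 5844 genes.

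In TGF-β signalling the activated receptor kinase phosphorylates the receptor-regulated Smads, Smad2 and Smad3, which bind Smad4, enter the nucleus and act on transcription. Smad7 is an inhibitory Smad that competes at the receptor and is itself a well known TGF-β target gene. Smurf1 and Smurf2 are HECT-type ubiquitin ligases with WW domains. They bind Smad proteins and are brought to the receptor by Smad7, where they direct its ubiquitination, so that Smad7 and the Smurfs form a negative feedback arm of the pathway.

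The study held 74 arrays with 2 channels each, from 5 lines sampled at 0, 0.3, 1, 2 and 4 h. That makes 25 groups, each of 3 arrays, apart from the 1 h group of S3KO with 2. The lines were S2WT and S3WT, the wild-type lines by name, S2KO and S3KO, the corresponding knockout lines by name, and U0126, titled S2WT against U0126, which is S2WT with U0126, an inhibitor of the kinase MEK. The published study used fibroblasts lacking Smad2 or Smad3; the labels state neither a cell type nor the deleted gene, nor whether a line is 1 clone. At 0.3 to 4 h, channel 1 held RNA without TGF-β and channel 2 RNA with TGF-β of the same line and time, and on U0126 arrays both channels carried the S2WT/U0126 name. The 0 h arrays were self-hybridisations, untreated RNA against untreated RNA, and show what ratio a probe gives without treatment. A label of the S3KO 0.3 h arrays names no TGF-β in either channel, and in the channel fields 2 h is written for S2WT arrays titled 4 h; the titles were followed in both cases.

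Each value is a log2 ratio of the channels, with the array's median over all probes subtracted, and is read as treated over untreated. This direction is likely but is not stated. A ratio within a line gives no level, so the lines cannot be ordered by expression, and neither a Smad2 or Smad3 knockout nor a cell type can be checked from it. The number of arrays limits the precision. Nothing in the labels says whether the arrays of a group came from separate cultures, so p-values reflect array-to-array spread alone, which could be technical. S3KO 1 h replicate 2 had correlations below -0.3 with 16 other arrays, the lowest being -0.40, so its direction is not settled. S3KO 0 h replicates 1 and 2 also correlated below 0 (-0.18 and -0.09) with the mean of the arrays of other groups, against 0.11 to 0.75 for the arrays outside these 3. S3KO values below are as deposited, and for the tested contrasts of the main probes the value with the sign of the 1 h array turned, or without the pair of 0 h arrays, is given beside them. Leaving out that pair was chosen after these correlations were seen; it leaves 1 array at 0 h, which is assumed to vary like the other groups.

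The probes differed in how much they can show. Smad3 probe 401, Smad7 probe 7665, Smurf1 probe 5023 and Smurf2 probes 2306 and 5215 had a value on all 74 arrays, and their residual SDs within groups were 0.18, 0.34, 0.24, 0.34 and 0.15. The lower quartile, median and upper quartile of this SD over all probes were 0.35, 0.58 and 0.95, so these 5 probes were among the less variable. Smad3 probes 2918 and 7886, Smad7 probe 5186 and Smurf2 probe 4133 had 13, 2, 15 and 4 blank arrays and residual SDs of 0.88, 0.80, 1.43 and 0.79. The second set therefore bears little on changes of the size described here.

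**Figure D1:**
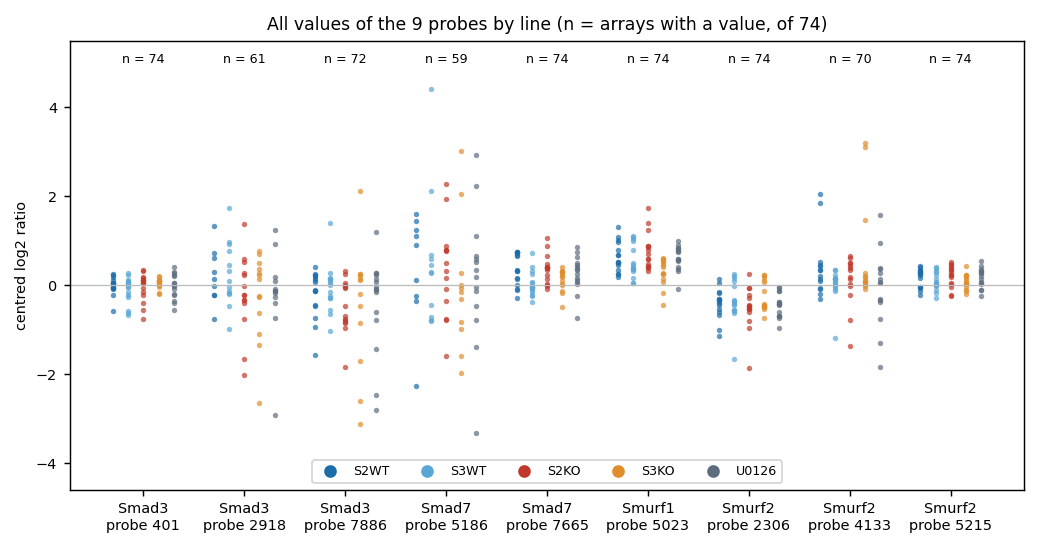
Centred log2 ratio (vertical axis) of each of the 9 probes on every array with a value, coloured by line, with the number of arrays above each probe. Smad3 probe 401 and Smurf2 probe 5215 stay within -0.77 to 0.54, while Smad7 probe 5186 runs from -3.33 to 4.41.

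Promoter windows are shown for the 2 ligases, because a probe of each rose in S2WT and S2KO. The 250 bases before the RefSeq start on GRCm38.p6 are given 5′ to 3′ on the gene's strand, which is the minus strand for both. Capitals mark matches to CAGAC or its reverse complement GTCTG, the core of the Smad binding element, and to GGGCGG or CCGCCC, the core of the GC box bound by Sp1 family factors; neighbouring CCGCCC matches can share a base. The Smurf1 window is chr5:144965831-144966080 and the Smurf2 window is chr11:106920716-106920965.
Smurf1: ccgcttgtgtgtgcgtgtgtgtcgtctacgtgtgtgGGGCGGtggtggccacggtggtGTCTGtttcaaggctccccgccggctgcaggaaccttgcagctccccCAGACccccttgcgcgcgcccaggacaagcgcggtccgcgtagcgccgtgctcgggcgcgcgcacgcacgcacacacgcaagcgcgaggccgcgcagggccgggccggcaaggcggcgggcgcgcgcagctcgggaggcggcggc
Smurf2: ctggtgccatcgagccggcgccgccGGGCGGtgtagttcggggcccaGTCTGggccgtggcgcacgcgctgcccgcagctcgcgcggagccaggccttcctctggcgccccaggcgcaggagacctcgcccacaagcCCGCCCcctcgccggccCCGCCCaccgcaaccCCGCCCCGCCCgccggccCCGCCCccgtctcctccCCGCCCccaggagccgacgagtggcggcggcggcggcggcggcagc
The Smurf1 window held 2 CAGAC matches, 192 and 145 bases before the start, and 1 GGGCGG match. The Smurf2 window held 1 CAGAC match, 203 bases before the start, and 7 GGGCGG matches. Of 32851 windows of this length in the promoter table, 42.2% held CAGAC and 32.7% held GGGCGG on either strand, so a match is common. How many windows held 2 or more CAGAC matches, or 7 or more GGGCGG matches, was not computed. The Smad3 window had no CAGAC match and 2 GGGCGG matches. A match describes letters in the window and is not a binding site.

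Smurf1, which had 1 probe, and Smurf2, on 1 of its 3 probes, were the members with a rise that passed the test. Against the pooled 0 h arrays of the 5 lines, Smurf1 probe 5023 rose in S2WT and S2KO, and Smurf2 probe 5215 rose in S2WT, S2KO and U0126. All these rises were under 1 on the log2 scale, at 0.35 to 0.62. In S3WT and S3KO neither probe passed the test, and Smurf1 in U0126 passed under some alternative settings only. In S3KO, 0.0141% of all tested probes passed, so the lack of a call there says little. A difference between the response of S3KO and that of S3WT or S2KO was not found for either probe. Against each line's own 0 h arrays, the only member call was Smurf2 probe 5215 in S2KO.

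In S2WT, Smurf1 probe 5023 read 0.35, 0.45 and 0.19 at 0 h, 0.26, 0.79 and 0.26 at 0.3 h, 0.51, 0.52 and 0.53 at 1 h, 0.68, 0.68 and 0.97 at 2 h, and 1.32, 1.02 and 1.09 at 4 h. All 9 arrays from 1 to 4 h lay above all 3 arrays at 0 h. In S2KO it read 0.60, 0.47 and 0.59 at 0 h, 0.40, 0.44 and 0.38 at 0.3 h, 0.85, 0.89 and 0.33 at 1 h, 1.39, 0.70 and 0.79 at 2 h, and 1.74, 0.88 and 1.24 at 4 h. Here 8 of 9 arrays were above every 0 h array, and 1 array at 1 h was below them all.

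In S3WT, Smurf1 read 0.37, 0.41 and 0.50 at 0 h, 0.36, 0.36 and 0.06 at 0.3 h, 0.04, 0.16 and 0.31 at 1 h, 0.80, 1.10 and 0.99 at 2 h, and 1.08, 1.03 and 0.46 at 4 h. The 1 h arrays were all below the 0 h arrays and the 2 h arrays all above them. In U0126 it read 0.37, 0.54 and 0.41 at 0 h, 0.58, 0.33 and 0.56 at 0.3 h, -0.08, 0.80 and 0.60 at 1 h, 0.84, 0.90 and 0.75 at 2 h, and 0.83, 1.00 and 0.77 at 4 h. Apart from 1 low array at 1 h, the arrays from 1 to 4 h were above every 0 h array. In S3KO it read -0.45, 0.08 and 0.54 at 0 h, 0.27, 0.45 and 0.42 at 0.3 h, -0.18 and 0.26 at 1 h, 0.62, 0.15 and 0.50 at 2 h, and 0.57, 0.26 and 0.58 at 4 h. The 0 h arrays of this line spanned most of the range of its later arrays, and the groups overlapped at each time.

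Smurf1 was above 0 before treatment: over the 15 arrays at 0 h the mean was 0.36 ± 0.26 (SD), and 14 of them were above 0. A ratio above 0 on a treated array is thus no sign of a response for this probe, and the 0 h arrays are needed as the base. The mean of the 1, 2 and 4 h groups minus the mean of the 5 lines' 0 h groups was 0.62 ± 0.11 (SE) in S2KO, with an adjusted p of 0.000153 by limma's moderated test, and 0.45 ± 0.11 in S2WT, with an adjusted p of 0.0189. The same difference was 0.35 ± 0.11 in U0126 (adjusted p = 0.119), 0.30 ± 0.11 in S3WT (adjusted p = 0.34) and -0.05 ± 0.11 in S3KO (adjusted p = 1), none of which passed 0.05. The S2WT call was lost when S2WT 4 h replicate 1 was left out (0.42, adjusted p = 0.0534) and when the S3KO 0 h arrays were taken out of the pool (0.37 ± 0.11, adjusted p = 0.125), as well as without centring (0.27, adjusted p = 0.198) or with arrays scaled to a common spread (0.35, adjusted p = 0.101). The S2KO call held in all 24 fits that left out 1 array and under both of these settings. In U0126 the Smurf1 value passed with arrays scaled (0.38, limma adjusted p = 0.0423) and with array weights (0.43, adjusted p = 0.00353). It also passed without U0126 1 h replicate 1 (0.44, adjusted p = 0.0257) and without S3KO 0 h replicate 3 (0.40, adjusted p = 0.0413). The remaining settings and left-out arrays gave no U0126 call.

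Taken by time, a division chosen after the values were seen, the Smurf1 difference from the pooled 0 h arrays in S2KO was 0.33, 0.60 and 0.92 at 1, 2 and 4 h, each ± 0.16 (SE), with limma adjusted p-values of 0.89, 0.029 and 0.000284. In S2WT it was 0.15, 0.41 and 0.78 with adjusted p-values of 0.999, 0.394 and 0.00416. The value was highest at 4 h in both lines. S3WT had its highest value at 2 h (0.60, adjusted p = 0.0942), and S3KO gave -0.32, 0.06 and 0.11. The averaged S3KO value of Smurf1 was 0.01 ± 0.11 in place of -0.05 with the sign of S3KO 1 h replicate 2 turned.

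Smurf2 probe 5215 in S2WT read -0.21, -0.04 and 0.30 at 0 h, -0.05, -0.12 and -0.07 at 0.3 h, 0.35, 0.17 and 0.27 at 1 h, 0.40, 0.23 and 0.26 at 2 h, and 0.35, 0.43 and 0.29 at 4 h. All 9 arrays from 1 to 4 h were above the 0 h mean, and 4 were above every 0 h array, since 1 array at 0 h was high. In S2KO it read -0.21, 0.06 and -0.25 at 0 h, 0.22, -0.03 and 0.18 at 0.3 h, 0.47, 0.03 and 0.36 at 1 h, 0.45, 0.30 and 0.53 at 2 h, and 0.41, 0.24 and 0.34 at 4 h. The arrays from 1 to 4 h were above every 0 h array in 8 of 9 cases.

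In U0126, Smurf2 probe 5215 read -0.10, 0.05 and -0.24 at 0 h, -0.10, 0.08 and 0.32 at 0.3 h, 0.28, 0.32 and 0.21 at 1 h, 0.54, 0.36 and 0.44 at 2 h, and 0.15, 0.02 and 0.28 at 4 h. The 2 h arrays were the highest and the 4 h arrays were lower than them, with no overlap. In S3WT it read -0.28, 0.00 and 0.04 at 0 h, -0.02, 0.03 and 0.01 at 0.3 h, -0.18, 0.15 and -0.11 at 1 h, 0.32, 0.24 and 0.38 at 2 h, and 0.40, 0.29 and 0.07 at 4 h. The 1 h arrays overlapped the 0 h arrays, and the arrays at 2 and 4 h were above them. In S3KO it read -0.20, -0.13 and 0.24 at 0 h, 0.02, 0.04 and 0.07 at 0.3 h, -0.03 and 0.16 at 1 h, 0.22, 0.02 and 0.44 at 2 h, and 0.12, -0.10 and 0.20 at 4 h, with overlap at every time.

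Against the pooled 0 h arrays, Smurf2 probe 5215 was higher by 0.41 ± 0.07 (SE) in S2KO, 0.37 ± 0.07 in S2WT and 0.35 ± 0.07 in U0126, with limma adjusted p-values of 0.000158, 0.00218 and 0.00582. These calls held in all 24 fits that left out 1 array, for each line. Without the centring of arrays the values stayed above 0 at 0.31, 0.19 and 0.35 but the calls were lost (adjusted p = 0.0559, 0.222 and 0.0563), and the U0126 call was also lost when the lines not compared were left out of the fit (adjusted p = 0.0609). The values in S3WT (0.24 ± 0.07, adjusted p = 0.207) and S3KO (0.19 ± 0.08, adjusted p = 0.831, or 0.20 with the sign of S3KO 1 h replicate 2 turned) did not pass. By time, Smurf2 probe 5215 in U0126 differed from the pooled 0 h arrays by 0.34, 0.51 and 0.21 at 1, 2 and 4 h, each ± 0.11, and the 2 h value alone passed (adjusted p = 0.0166).

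Against each line's own 0 h arrays, where the error is larger, the one member called in any line was Smurf2 probe 5215 in S2KO (0.48 ± 0.11 SE, limma adjusted p = 0.0387). That call held in 4 of 12 fits that left out 1 S2KO array, and the adjusted p was 0.915 when the arrays of S2KO were fitted alone. Smurf1 probe 5023 gave 0.48 ± 0.17 in S2WT, 0.43 ± 0.17 in S2KO, 0.27 ± 0.17 in U0126, 0.25 ± 0.17 in S3KO and 0.24 ± 0.17 in S3WT, none of which passed (limma adjusted p from 0.34 to 1). The order of the lines thus depended on the base. S3KO had a lower 0 h mean (0.06 ± 0.49 SD, n = 3) than the other lines, which ran from 0.33 in S2WT to 0.55 in S2KO. S2KO came first against the pooled 0 h arrays, and S2WT came first against own 0 h arrays. Without S3KO 0 h replicates 1 and 2 the S3KO value against its own 0 h array was -0.23 ± 0.26, and with the sign of S3KO 1 h replicate 2 turned it was 0.31 ± 0.17.

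**Figure D2:**
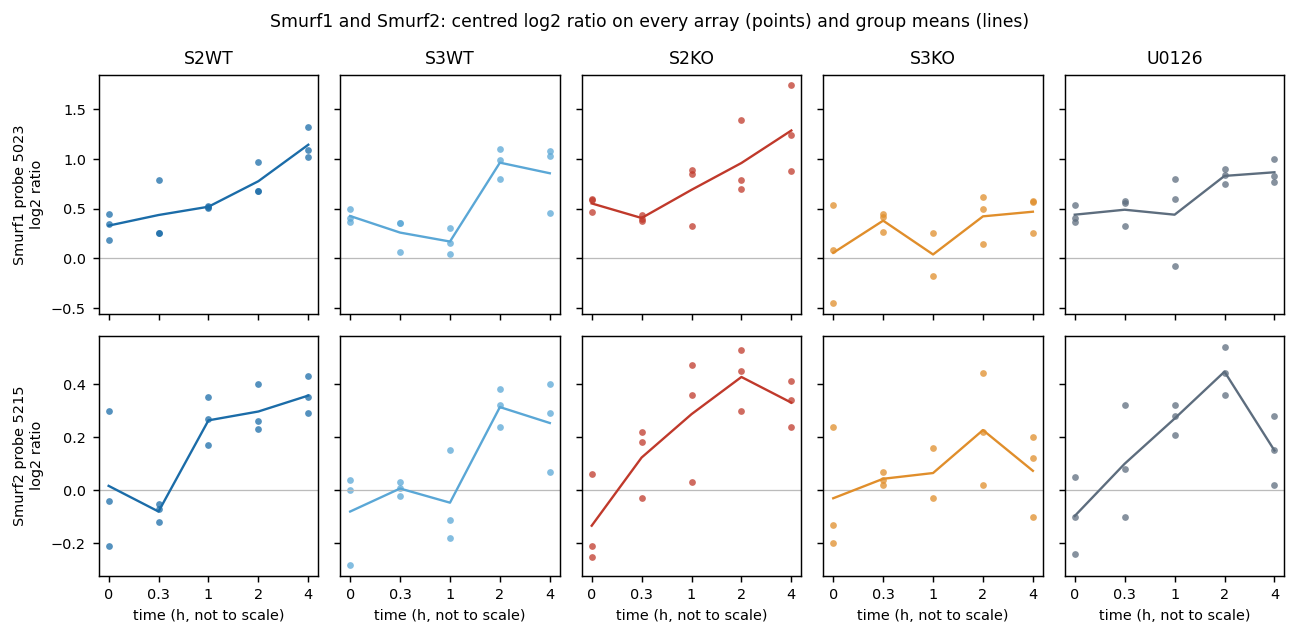
Centred log2 ratio of Smurf1 probe 5023 (top) and Smurf2 probe 5215 (bottom) against time in h, with 1 panel per line, points for arrays and lines through group means. Smurf1 means go from 0.33 at 0 h to 1.14 at 4 h in S2WT and from 0.55 to 1.29 in S2KO. They go from 0.43 to 0.86 in S3WT, from 0.44 to 0.87 in U0126 and from 0.06 to 0.47 in S3KO. Smurf2 starts near 0 and peaks at 0.45 in U0126 at 2 h.

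The remaining Smurf2 probes did not follow probe 5215. Over the 25 group means, Pearson's r with probe 5215 was 0.24 for probe 2306 and -0.04 for probe 4133, whereas Smurf1 probe 5023 and Smurf2 probe 5215 had an r of 0.72; the group means share their arrays, so these are descriptions. Probe 2306 was below 0 without treatment (mean -0.46 ± 0.45 SD over 15 arrays at 0 h), and against the pooled 0 h arrays it gave values from -0.06 in S2WT to 0.35 in S3WT, none called. In S3WT against its own 0 h arrays (-0.58, -1.65 and -0.38) it gave 0.76 ± 0.23 SE, with a limma adjusted p of 0.188. Probe 4133 ran from -1.85 to 3.21 and was called in no comparison, with S3KO against its own 0 h arrays (1.47, 3.11 and 0.27) at -1.0 ± 0.53 (SE, limma adjusted p = 0.524). That value was -2.07 ± 0.53 (adjusted p = 0.0269) with the sign of S3KO 1 h replicate 2 turned, which read 3.21, and 0.35 ± 0.78 (adjusted p = 1) without S3KO 0 h replicates 1 and 2. Averaging the 3 probes left no Smurf2 call in any line. That average includes the variable probe 4133 and had an SE of 0.13 or 0.14 against the pooled 0 h arrays. Such an average bears little on a rise of the size seen on probe 5215. Probe by probe, the rise of Smurf2 rests on 1 of its 3 probes.

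Averaged over 1 to 4 h, Smad7 probe 7665 was farthest above the pooled 0 h arrays in S2WT and S2KO, but it passed the test in neither. In S2WT it read 0.00, 0.14 and -0.09 at 0 h, 0.17, 0.74 and -0.10 at 0.3 h, 0.72, 0.69 and 0.31 at 1 h, 0.74, -0.29 and 0.65 at 2 h, and 0.74, 0.34 and 0.31 at 4 h. In this line 8 of the 9 arrays from 1 to 4 h were above every 0 h array, and 1 array at 2 h was below them all. In S2KO it read 0.48, 0.03 and -0.02 at 0 h, 0.40, 0.34 and -0.08 at 0.3 h, 1.06, 0.23 and 0.15 at 1 h, 0.88, 0.38 and 0.66 at 2 h, and 0.40, 0.01 and 0.39 at 4 h. Here 1 high array at 0 h left 3 of 9 later arrays above every 0 h array.

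In S3WT, Smad7 probe 7665 read -0.23, -0.03 and -0.11 at 0 h, -0.15, 0.08 and -0.07 at 0.3 h, 0.40, -0.07 and 0.33 at 1 h, 0.72, -0.03 and -0.24 at 2 h, and 0.06, 0.26 and -0.38 at 4 h. In U0126 it read 0.25, 0.11 and 0.46 at 0 h, 0.08, 0.03 and 0.74 at 0.3 h, -0.25, 0.36 and 0.64 at 1 h, 0.17, 0.87 and 0.40 at 2 h, and -0.74, 0.51 and 0.34 at 4 h. From 1 to 4 h, 5 of 9 arrays in S3WT and 3 of 9 in U0126 were above every 0 h array of the line. The lowest arrays, at -0.38 in S3WT and -0.74 in U0126, were below every 0 h array. In S3KO it read -0.18, -0.14 and 0.19 at 0 h, 0.25, 0.21 and 0.30 at 0.3 h, -0.50 and 0.33 at 1 h, 0.01, 0.09 and 0.03 at 2 h, and 0.30, 0.31 and 0.41 at 4 h, where the arrays at 0.3 and 4 h were above every 0 h array. From 1 to 4 h this held for 4 of 8 S3KO arrays.

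Against the pooled 0 h arrays, Smad7 probe 7665 gave 0.41 ± 0.14 (SE) in S2WT and 0.41 ± 0.14 in S2KO, with limma adjusted p-values of 0.167 and 0.132. It gave 0.20 ± 0.14 in U0126, 0.06 ± 0.14 in S3WT and 0.04 ± 0.15 in S3KO, the last being 0.21 ± 0.15 with the sign of S3KO 1 h replicate 2 turned. Against 0 in place of the 0 h arrays, it was 0.47 ± 0.11 in S2WT and 0.46 ± 0.11 in S2KO, with limma adjusted p-values of 0.00169 and 0.00163; the 0 h arrays are not used there, so a ratio away from 0 without treatment is left in. Smad7 probe 5186 had a value on 59 arrays with a residual SD of 1.43 and could be tested against own 0 h arrays in S2KO and U0126, where it gave 0.51 ± 1.09 and 0.77 ± 0.93. At that error a change of the size seen with probe 7665 was not detectable.

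**Figure D3:**
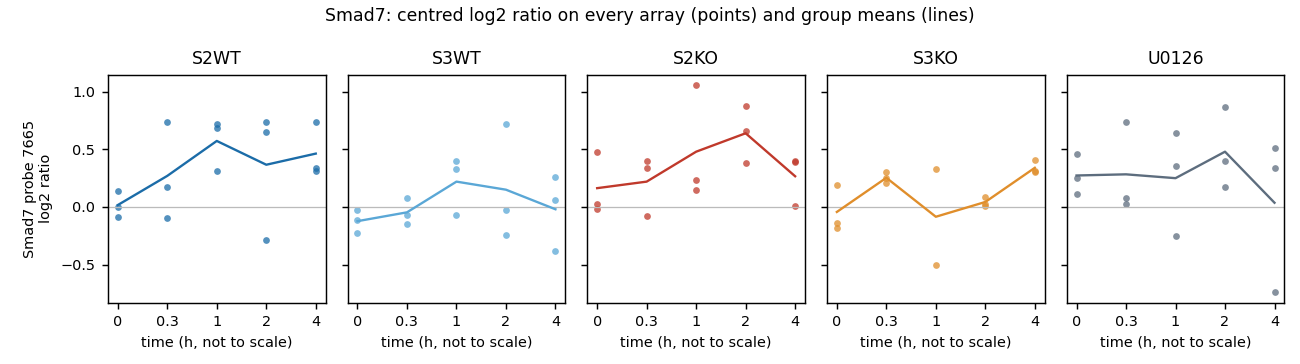
Centred log2 ratio of Smad7 probe 7665 against time in h, with 1 panel per line, points for arrays and lines through group means. In S2WT the mean goes from 0.02 at 0 h to 0.58 at 1 h, and in S2KO from 0.16 at 0 h to 0.64 at 2 h. Later arrays lie both above and below the 0 h values in S2WT, S3WT, S3KO and U0126.

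On 1 of the 3 Smad3 probes, probe 401, the ratio fell late in S2KO, and the 4 h values were low in 3 further lines. With the probes averaged, the S2KO change from 1 to 4 h was -0.48 ± 0.32 (SE) and did not pass (limma adjusted p = 0.774). That average includes the more variable probes 2918 and 7886, while the SE on probe 401 alone was 0.16. It bears little on a fall of the size seen on probe 401. Averaged over 1 to 4 h, Smad3 probe 401 differed little from the pooled 0 h arrays, from -0.13 ± 0.08 (SE) in S2KO to 0.06 ± 0.09 in S3KO (-0.01 with the sign of S3KO 1 h replicate 2 turned), with no call in any line. The 4 h arrays stood apart: in S2WT they read -0.23, -0.06 and -0.58, in S3WT -0.58, -0.63 and -0.21, in S2KO -0.40, -0.55 and -0.77, and in U0126 -0.35, -0.39 and -0.56. All 12 were below 0, with a median of -0.47, while in the same lines the 12 arrays at 2 h ran from -0.02 to 0.35. In S3KO the 4 h arrays read 0.01, -0.03 and 0.11 and were above each of the 12 arrays at 4 h of those lines. This grouping of lines was chosen after the values were seen.

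From 1 h to 4 h, a change that needs no 0 h array, Smad3 probe 401 fell in S2KO by 0.64 on the log2 scale, as the group means went from 0.07 to -0.57 (-0.64 ± 0.16 SE, limma adjusted p = 0.0422). When each of its 6 arrays was left out in turn, 2 fits kept the call, and the highest adjusted p among the 6 was 0.315. It was also lost without centring (-0.35, adjusted p = 0.372), with arrays scaled (-0.53, adjusted p = 0.353) and with S2KO fitted alone (adjusted p = 0.734). The same change was -0.53 ± 0.16 in S3WT (adjusted p = 0.288), -0.45 ± 0.16 in U0126 (adjusted p = 0.348), -0.31 ± 0.16 in S2WT (adjusted p = 0.808) and -0.10 ± 0.18 in S3KO (adjusted p = 0.999). With the sign of S3KO 1 h replicate 2 turned, the S3KO value was 0.11 ± 0.18. Against the pooled 0 h arrays, the 4 h group alone gave -0.59 ± 0.12 in S2KO with a limma adjusted p of 0.00239, and -0.49, -0.45 and -0.31 in S3WT, U0126 and S2WT with adjusted p-values of 0.0616, 0.058 and 0.302; S3KO gave 0.01 (adjusted p = 1).

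Whether S3KO differed was tested directly and did not pass. The change from 1 to 4 h in S3KO minus that in S3WT was 0.44 ± 0.24 (SE, limma adjusted p = 0.999), and minus that in S2KO it was 0.55 ± 0.24 (adjusted p = 0.67); with the sign of S3KO 1 h replicate 2 turned these were 0.64 and 0.75 (adjusted p = 1 and 0.469). At 4 h alone, the direct difference of S3KO from S2KO was 0.60 ± 0.16 (adjusted p = 0.0667) and that from S3WT was 0.50 ± 0.16 (adjusted p = 0.471). In a line whose Smad3 gene is disrupted, what the probe detects depends on the part of the transcript that remains, which is not known here.

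The earlier values of Smad3 probe 401 lay around 0. The 0 h arrays of S2WT read -0.07, 0.06 and -0.04, those of S3WT 0.03, -0.27 and 0.08, those of S2KO 0.11, 0.11 and 0.31, those of S3KO 0.09, -0.20 and -0.17, and those of U0126 -0.01, 0.40 and -0.22. The 1 h arrays ran from -0.20 to 0.23 over the 5 lines. A single S3WT array at 0.3 h was as low (-0.68) as the 4 h arrays, its 2 partners being -0.04 and -0.05.

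Smad3 probe 7886 was also below 0 on the 12 arrays at 4 h of S2WT, S3WT, S2KO and U0126, from -2.48 to -0.08 with a median of -0.59. At 2 h, however, 6 of 12 were below 0 as well, down to -2.81, and in S3KO the 4 h arrays read -2.60, -1.70 and 0.21, so on this probe S3KO did not lie above the remaining lines. No comparison of probe 7886 passed the test; its change from 1 to 4 h was -2.51 ± 0.72 (SE) in S3KO with a limma adjusted p of 0.188, and between -1.32 and -0.23 elsewhere. The S3KO 1 h arrays read 2.13, on replicate 2 of unsettled direction, and 0.15, and with the sign of replicate 2 turned the S3KO change was -0.38 ± 0.72 (adjusted p = 1). As deposited it passed without S3KO 4 h replicate 3 (-3.30, adjusted p = 0.0281), and without S3KO 1 h replicate 3 (-3.50, adjusted p = 0.0268), where the array of unsettled direction is the one left at 1 h and is assumed to vary like the other groups. The S3KO change of probe 7886 therefore rests on that array. Over 25 group means, Pearson's r between probes 401 and 7886 was 0.22. Smad3 probe 2918, on 61 arrays, was called in no comparison; its S2WT arrays at 1 h were all blank, so its S2WT response at 1 to 4 h was not tested.

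**Figure D4:**
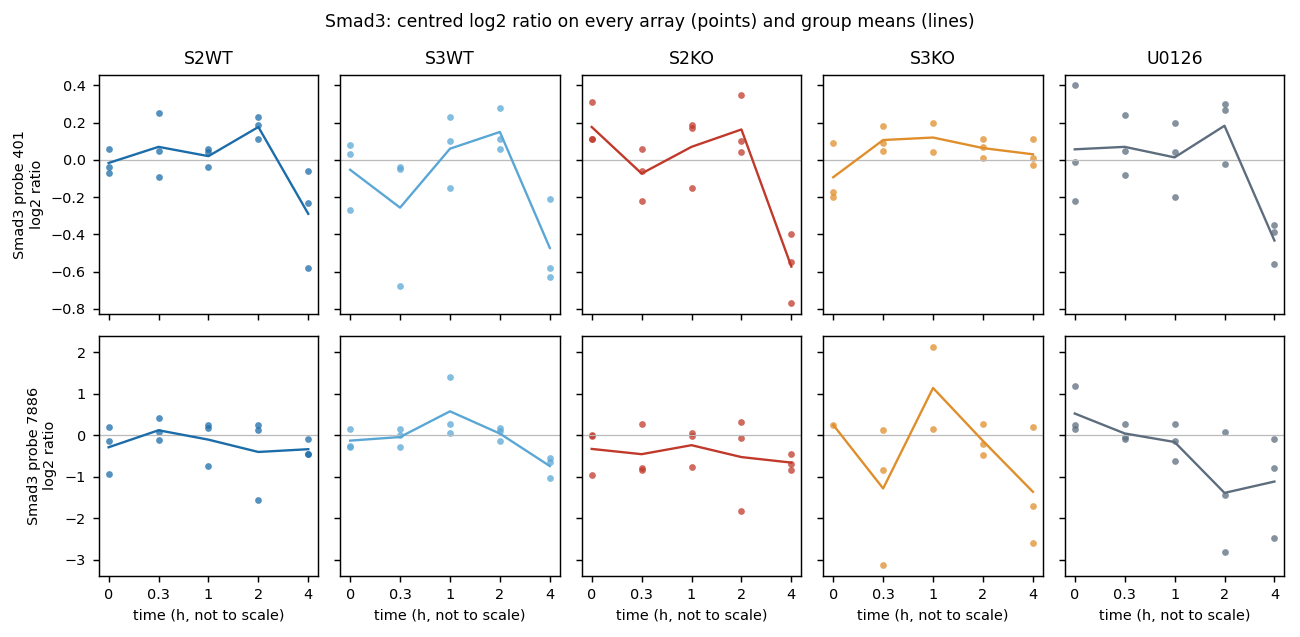
Centred log2 ratio of Smad3 probe 401 (top) and probe 7886 (bottom) against time in h, with 1 panel per line, points for arrays and lines through group means. On probe 401 the 4 h means are -0.29, -0.47, -0.57 and -0.43 in S2WT, S3WT, S2KO and U0126 and 0.03 in S3KO; on probe 7886 the scale is wider and S3KO arrays reach -2.60 at 4 h.

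The members' calls stood beside few calls in all. Against own 0 h arrays, the shares of all tested probes that passed in S2WT, S3WT, S2KO, S3KO and U0126 were 0.192%, 0.12%, 0.515%, 1.53% and 0.0719%, and 0, 0, 1, 0 and 0 member probes passed. Against the pooled 0 h arrays, the shares were 1.27%, 0.146%, 2.49%, 0.0141% and 0.782% in the same order, and 2 of 6, 0 of 7, 2 of 7, 0 of 7 and 1 of 7 tested member probes passed. In S3KO a single probe of all those tested passed, so the count of 0 members there stands beside nearly no calls at all. These comparisons share the pooled 0 h arrays, so their calls are not independent. The median over the tested members was 0.17, 0.24, 0.14, 0.06 and 0.10, against medians of 0.00 or 0.01 over all probes.

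**Figure D5:**
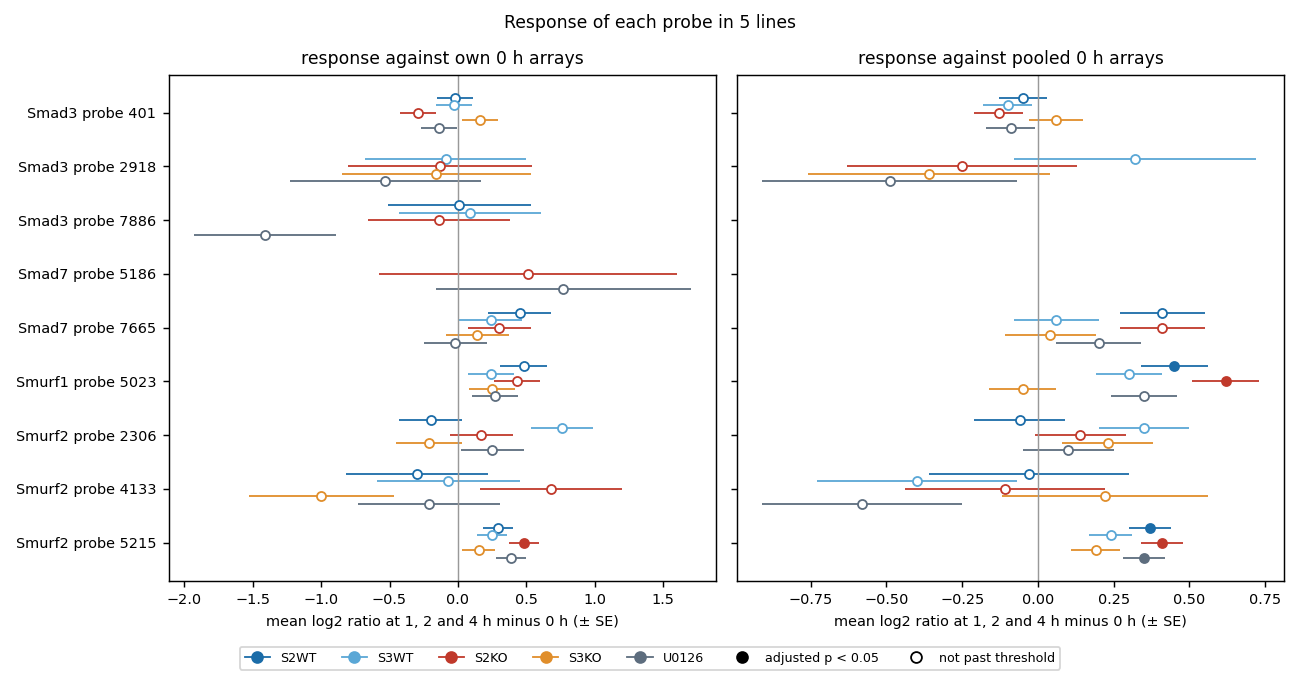
Mean log2 ratio at 1, 2 and 4 h minus that at 0 h (horizontal axis, ± SE) for each probe and line, against the line's own 0 h arrays (left) and the pooled 0 h arrays of 5 lines (right); filled points passed an adjusted p of 0.05, and probes with too few values have no point. Filled points are Smurf2 probe 5215 in S2KO on the left, and on the right Smurf1 in S2WT and S2KO and Smurf2 probe 5215 in S2WT, S2KO and U0126.

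No member passed at 0.3 h, when 0.0657%, 0.196%, 0.405%, 0.0648% and 0.5% of all probes passed in S2WT, S3WT, S2KO, S3KO and U0126. The 0.3 h values of Smurf1 against the pooled 0 h arrays lay between -0.11 and 0.13, and those of Smurf2 probe 5215 between -0.02 and 0.19. Among the member probes tested at this time, the value farthest from 0 was Smurf2 probe 2306 in S2KO, at -0.63 ± 0.22 (SE; limma adjusted p = 0.225). In the change from 1 to 4 h, 0.0231%, 0.0576%, 0.753%, 0.19% and 0.139% of all probes passed, and of the members Smad3 probe 401 in S2KO did. Smurf1 was higher at 4 h than at 1 h in S3WT by 0.68, in S2WT by 0.63, in S2KO by 0.59 and in U0126 by 0.43, each ± 0.21 (SE), and in S3KO by 0.43 ± 0.23, none of which passed (limma adjusted p from 0.231 to 0.962). The S2KO value passed without centring (0.89, adjusted p = 0.0269), where the median of all probes was 0.32, and without S2KO 4 h replicate 2 (0.80, adjusted p = 0.0395), and the S3KO value was 0.25 ± 0.23 with the sign of S3KO 1 h replicate 2 turned. Smurf2 probe 5215 changed less between these times, from -0.12 in U0126 to 0.30 in S3WT, with no call.

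Differences of the response between lines, which ask whether a knockout or U0126 alters it, passed for no member. Of all probes, 0.0386% passed for S2KO minus S2WT, 0.126% for S3KO minus S3WT, 0.0252% for U0126 minus S2WT and 0.227% for S3KO minus S2KO. For Smurf1 these differences were -0.06, 0.02, -0.21 and -0.17, each ± 0.24 (SE), and for Smurf2 probe 5215 they were 0.19, -0.10, 0.10 and -0.33, each ± 0.16. For Smad7 probe 7665 they were -0.15, -0.10, -0.47 and -0.16 with SEs of 0.32 or 0.33. Without S3KO 0 h replicates 1 and 2, the S3KO minus S3WT and S3KO minus S2KO differences were -0.47 and -0.65 for Smurf1, -0.37 and -0.60 for Smurf2 probe 5215, and -0.33 and -0.39 for Smad7 probe 7665, none of which passed (limma adjusted p from 0.326 to 1). With the sign of S3KO 1 h replicate 2 turned they were 0.08 and -0.11, -0.09 and -0.32, and 0.07 and 0.01. The sign of the Smurf1 difference from S3WT and of the Smad7 differences thus depended on these arrays. With such errors a difference of the size of the responses themselves could not be detected, so the lines are not shown to be alike. The differences of the change from 1 to 4 h passed for 0%, 0%, 0% and 0.0263% of all probes in the same pairs, with 339, 314 and 265 probes at an unadjusted p under 0.05 by limma in the pairs with none, and for no member.

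Compared directly, without the 0 h arrays, the treated arrays of S3KO lay below those of S2KO for Smurf1 by -0.67 ± 0.13 on the log2 scale (limma adjusted p = 0.000753), which held in all 17 fits that left out 1 array and was -0.61 ± 0.12 with the sign of S3KO 1 h replicate 2 turned. The call was lost without centring (-0.51, adjusted p = 0.054) and with arrays scaled (-0.42, adjusted p = 0.0948). Of all probes, 1.51% passed in this pair. The 0 h arrays of these lines already differed in the same direction, with means of 0.06 ± 0.49 (SD, n = 3) in S3KO and 0.55 ± 0.07 (SD, n = 3) in S2KO, and relative to them the difference was -0.17 ± 0.24 (adjusted p = 0.907). Without S3KO 0 h replicates 1 and 2 it was -0.65 ± 0.30 (adjusted p = 0.745). The direct difference passed for 0.326% of all probes for S2KO minus S2WT and for 0% for S3KO minus S3WT and U0126 minus S2WT (448 and 398 probes at an unadjusted p under 0.05 by limma), with no member in these 3 pairs; Smurf1 gave 0.17 ± 0.12, -0.35 ± 0.13 (-0.29 with the sign of S3KO 1 h replicate 2 turned) and -0.10 ± 0.12.

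Other genes of the pathway were counted from 8 lists with 90 genes, of which 37 had a probe. Against the pooled 0 h arrays, none of the 3 probes of Smad1, Smad4 and Smad5, none of the 8 probes of 4 further HECT ligases of the Nedd4 family, and none of 3 probes of other Smad ubiquitin ligases and deubiquitinases passed in any line. The median of the Nedd4 family probes lay between -0.04 and 0.13 over the lines. Among the known target genes, 5 of 8 tested probes rose in S2KO, 3 each in S2WT, S3WT and U0126, and 0 in S3KO, and none fell. This list was chosen with earlier results of these data known, so its counts are descriptions and no independent evidence of a response. Of all probes, 2.49%, 1.27%, 0.146%, 0.782% and 0.0141% passed in these lines, in the same order. The 0 in S3KO thus stands beside nearly no calls at all. The list's medians were 0.59, 0.37, 0.24, 0.34 and -0.06. In S2KO, Hbegf, a growth factor of the EGF family, rose by 2.23 ± 0.24 (SE), Gadd45b, a stress-response gene, by 2.07 ± 0.21, and Snai1, a repressor of E-cadherin, by 1.83 ± 0.19, so the Smurf changes were small beside those of these targets. The limma adjusted p-values of these 3 were 1.31e-09, 6.69e-10 and 6.69e-10.

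Of the corepressors and membrane inhibitors, 1 of 8 tested probes rose in S2WT, that of Tgif1, a homeodomain corepressor of Smads (0.47 ± 0.12 SE, limma adjusted p = 0.0346), and 1 of 8 in S2KO, that of Skil, which encodes the Smad corepressor SnoN (1.22 ± 0.15, adjusted p = 9.09e-08). Among the receptors and co-receptors, 0 probes rose and 2 of 8 fell in S2WT, while 2 rose and 2 fell in S2KO. The shares of all probes that passed were 1.27% in S2WT and 2.49% in S2KO. Tgfbr1, the type I receptor that Smad7 and the Smurfs target, rose by 1.06 ± 0.17 in S2KO (limma adjusted p = 6.94e-05). Acvr1, another type I receptor of the family, rose there by 0.52 ± 0.11 (adjusted p = 0.00298), and Tgfbr3, the co-receptor betaglycan, fell in S2WT by 0.79 on the log2 scale on probe 7348 (SE 0.16, adjusted p = 0.0034). No probe passed among 2 of the ligands, latency proteins and antagonists, nor among the up to 10 tested of anchors, adaptors and coactivators.

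The probes most like each member over the 25 group means, of 6999 compared, were found by Pearson's r, as a description. For Smurf1 they were Garem2 (0.88), Rcl1 (0.88) and Csdc2 (0.87), and for Smurf2 probe 5215 they were Creb3l2 (0.82), Asb7 (0.80) and the target gene Hbegf (0.80). For Smad7 probe 7665 they were the target gene Gadd45b (0.78), Pxn (0.77) and Tmem119 (0.77). For Smad3 probe 401 they were Fah, Sh3bp5 and Ablim1, each with an r of 0.75.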

How the data were processed

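The authors deposited 1 column per array holding log2 ratios between its 2 channels, per the file headers. How they scanned, corrected and normalised the arrays, with which dyes, and which channel is the numerator are not stated in the labels or headers. Values above 16.6 (1344 cells equal to 16.61) were set to missing, as blank cells already were (2.93% to 14.3% blank per array), and each array was centred on its median (-0.59 to 0.21). Group means of 25 groups were fitted by least squares over all 74 arrays in R 4.3.3, with variances moderated by limma 3.58.1. A probe was tested with at least 2 arrays in each group of the contrast; p-values were adjusted by Benjamini-Hochberg over all probes tested, with 0.05 as the threshold. The fit was tested on simulated data. Samples were grouped by title. All 9 member probes are described. Members, lists and tests were chosen with earlier results of these data known. From each pathway list, up to 3 genes passing in the pooled comparison of any line were named by smallest adjusted p. Symbols came from the platform annotation, promoters from RefSeq, matched by symbol for 3 of 4 genes. Same-numbered arrays of a line deviated together weakly. Their median correlation was 0.01 to 0.17 by line, against -0.10 to -0.02 for arrays of other numbers, and the lowest pair was at -0.22. Replicate numbers were not used as pairs in the main fit, and a fit with them as a block is given below. Alternatives covered centring, scaling, filters, weights, averaged probes, the 0 h base, single times, left-out arrays and the array of unsettled direction.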

Additional observations from a re-analysis of the deposited data

Results flagged for a closer look

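Smurf1 probe 5023 differed between lines when treated arrays were compared directly, at -0.67 for S3KO minus S2KO, past the threshold of the test; relative to the lines' own 0 h arrays the difference was -0.17 and did not pass.

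Of 120 comparisons of a probe at one time between 2 lines, 10 had every array of one line above its own 0 h mean and every array of the other below. These differences of mean changes were not tested. How often such a pattern occurs over all probes was not computed. The count of 10 is therefore not shown to exceed what array-to-array spread alone would give. On Smad3 probe 401, S3KO exceeded S3WT at 4 h by 0.54, S2KO at 4 h by 0.87 and S2KO at 0.3 h by 0.45. On Smad3 probe 7886, U0126 minus S2WT at 0.3 h was -0.89. On Smurf1 probe 5023, S3KO exceeded S3WT by 0.49 and S2KO by 0.47 at 0.3 h, a group of S3KO whose channel labels both lack TGF-β. On Smurf2 probe 5215, S2KO exceeded S2WT by 0.35 at 0.3 h. On Smurf2 probe 2306, S3KO minus S3WT was -0.79 at 0.3 h. On Smurf2 probe 4133, S2KO exceeded S2WT by 1.09 at 1 h, and S3KO minus S2KO was -2.45 at 2 h.

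Of these 10, 7 involve S3KO, whose 0 h replicates 1 and 2 correlate below 0 with the arrays of other groups. Against S3KO 0 h replicate 3 alone, a base chosen after seeing the correlations, 4 of the 7 still had every array on opposite sides. The Smurf1 differences at 0.3 h became 0.01 and -0.01, as the S3KO change went from 0.32 to -0.16, and the Smurf2 probe 2306 difference became -0.35; these 3 no longer moved in opposite directions. The Smad3 probe 401 differences became 0.62, 0.95 and 0.53, and that of Smurf2 probe 4133 at 2 h became -1.11.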

How the results depend on the processing

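Of 32 counts of member probes called, 26 were 0. Without centring, where the median of all probes moved to -0.17 in the pooled S2WT comparison (24 higher and 271 lower calls in place of 64 and 32) and to 0.32 in the S2KO change from 1 to 4 h, the count was 0 for S2KO against own 0 h arrays, 0, 1 and 0 for S2WT, S2KO and U0126 against the pool, and 0 for S3KO minus S2KO compared directly; every called member value kept its sign, such as -0.35 for Smad3 probe 401 in S2KO. With arrays scaled the same 5 counts were 0, 1, 2, 2 and 0, and the change from 1 to 4 h gave 2 in S3WT and 0 in S2KO. Array weights gave 2 for U0126 against the pool and 1 each for the change in S3WT and U0126. With probes of a gene averaged, the pool gave 1, 1 and 0 for S2WT, S2KO and U0126, and S2KO gave 0 against own 0 h arrays and 0 for the change. Fitting the compared lines alone gave 0 for S2KO against own 0 h arrays, 0 for U0126 against the pool and 0 for the S2KO change. Treated arrays against 0 gave 4, 2, 4 and 4 for S2WT, S3WT, S2KO and U0126, and compared directly 1 for S3KO minus S2KO; Smurf2 probe 2306, low at 0 h, turned to -0.32 in S2KO and -0.35 in U0126. The pool without S3KO gave 1 for S2WT, and S3KO 1 h replicate 2 with its sign turned gave 1 for S3KO against own 0 h arrays. Single times, chosen after seeing the data, gave 0 at 1 h for S2WT, S2KO and U0126 against the pool, 0 at 2 h for S2WT, 0 at 4 h for U0126, and 0 at each time for S3KO minus S2KO. Leaving out 1 array gave 0 to 1 for S2KO against own 0 h arrays, 1 to 2 for S2WT and 1 to 2 for U0126 against the pool, and 0 to 2 for the change in S2KO and in S3KO; 27 counts did not move.

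With the replicate number as a block, which changed no member call, Smurf1 in S2KO against the pool was 0.62 (limma adjusted p = 0.000216) and Smad3 probe 401 in S2KO from 1 to 4 h was -0.64 (adjusted p = 0.0406); the count of member probes called stayed at 2 for S2WT and 2 for S2KO against the pool. The causes of these movements were not tested. Counts over all probes moved by more than 1.5 times under several settings, for example from 185 to 64 with arrays scaled for S2KO against the pool and from 96 to 295 without centring for S2WT. Signal over background is not known for these ratios.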
